A study of Mus musculus with 32 samples.

Results

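The nuclear subunits of oxidative phosphorylation were examined in RNA from the retinal pigment epithelium (RPE) of *rd1* mice. They were taken from the gene table by symbol: the protein-coding nuclear genes that begin with Ndufa, Ndufb, Ndufc, Ndufs, Ndufv, Uqcr, Cox4 to Cox8, or Atp5, and *Sdha* to *Sdhd*, without the Ndufaf assembly factors and without pseudogenes. This gave 85 of the 34453 genes listed. Of these, 38 belong to complex I, 4 to complex II, 8 to complex III, 18 to complex IV, and 17 to complex V.

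Complexes I and II pass electrons from NADH and succinate to ubiquinone, complex III passes them on to cytochrome c, and complex IV passes them to oxygen. Complex V, the ATP synthase, makes ATP from the proton gradient that complexes I, III, and IV build. The mitochondrial genome encodes a few core subunits, and all other subunits, those of complex II included, come from nuclear genes. The RPE is known as a tissue that relies on mitochondrial respiration while it hands glucose on to the photoreceptors. Nrf2, the product of *Nfe2l2*, is a transcription factor that switches on antioxidant genes. It is not NRF1, the product of *Nrf1*, which is a separate factor known for binding promoters of respiratory chain genes.

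All mice were labelled *rd1*, a strain whose rods carry a phosphodiesterase mutation and die early. Both eyes of a mouse were infected with AAV-Best1-GFP, and one of them also with AAV-Best1-Nrf2, which carries human Nrf2. The eye with both vectors is called the Nrf2 eye here, and the eye with GFP alone the control eye. By the methods, the Nrf2 eye also received a higher total vector dose and a further capsid type. The effect of these cannot be told apart from that of Nrf2 itself. In both vectors the human Best1 promoter limits expression to the RPE. The eyes were taken at P20 (7 mice) and P40 (9 mice), giving 32 libraries, and each P40 mouse is a different animal from the P20 mice. The methods name fewer *rd1* pairs at P20 than the 7 of the labels. For P40 they name 4 *rd1* pairs and 5 CD1 pairs, whereas the labels give 9 *rd1* pairs. The strain at P40 therefore rests on the labels, and strain and age cannot be told apart if some of these mice were CD1. The retina was removed, RNA was collected from the eyecup, and poly(A) RNA was amplified before sequencing, so neighbouring tissue can contribute. In such bulk RNA, fewer cells of a type and less RNA per cell cannot be told apart. Nothing says how the litters or the 2 sequencing runs map to the libraries. In the comparisons between ages, *P* values measure the spread between these animals, with any run difference inside a group included. For the Nrf2 effect and its difference between ages, they measure the spread of the differences between the eyes of a mouse. The library names begin with M for every P20 eye and with A for every P40 eye, and the meaning of the letters is not stated. If preparation or sequencing followed these series, its effect cannot be told apart from that of age.

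The libraries held 16548332 to 50542797 estimated counts. The RPE genes *Rpe65* and *Rlbp1* were detected in all 32 libraries, with at least 135 and 622 CPM (the count relative to the normalized library total), and *Best1* was low, with group medians between 1.38 and 2.87 CPM. The human transgene reached 3205 to 10438 CPM in the Nrf2 eyes, apart from the Nrf2 eye of P20 mouse 4 with 1082 CPM. Control eyes held at most 154 CPM of it, apart from the control eye of P20 mouse 3 with 1098 CPM. These 2 libraries were also the closest pair of all by their counts, and their transgene levels lie between those of the other control eyes and the other Nrf2 eyes, so that neither matches its label, and the results are also given without P20 mice 3 and 4. The 8 known Nrf2 targets checked (*Gclc*, *Gclm*, *Txnrd1*, and *Srxn1* among them) rose at both ages, with 8 of 8 called and median log2 fold changes of 3.26 at P20 and 3.77 at P40. At P40, 5 libraries stood apart from the rest, as described below with the summed level of the subunits.

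The start of 6 subunit genes is shown because they represent the behaviours found below. *Atp5k*, *Ndufa8*, and *Ndufs3* were higher at P40, *Cox8b* and *Cox8a* are a muscle-type and a ubiquitous form of the same subunit, and *Sdha* is a long subunit that was not called. Each sequence runs 5′ to 3′ from 120 bases before to 30 bases after the transcription start in RefSeq (GRCm38.p6), with a match to a searched motif in capitals.
Atp5k, chr5:108434370-108434519, minus strand: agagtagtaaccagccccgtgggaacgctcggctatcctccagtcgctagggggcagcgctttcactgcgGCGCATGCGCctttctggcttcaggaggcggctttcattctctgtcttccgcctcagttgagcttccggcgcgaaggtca
Ndufa8, chr2:36049309-36049458, minus strand: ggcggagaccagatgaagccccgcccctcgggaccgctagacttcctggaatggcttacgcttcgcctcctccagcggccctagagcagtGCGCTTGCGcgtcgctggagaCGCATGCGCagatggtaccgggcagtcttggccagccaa
Ndufs3, chr2:90904692-90904841, minus strand: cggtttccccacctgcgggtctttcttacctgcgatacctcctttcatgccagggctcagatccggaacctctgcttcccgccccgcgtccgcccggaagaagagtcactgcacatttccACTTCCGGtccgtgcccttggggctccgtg
Cox8b, chr7:140900417-140900566, minus strand: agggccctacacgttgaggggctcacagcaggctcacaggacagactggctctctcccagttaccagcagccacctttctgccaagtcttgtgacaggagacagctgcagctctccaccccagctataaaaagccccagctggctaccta
Cox8a, chr19:7217587-7217736, minus strand: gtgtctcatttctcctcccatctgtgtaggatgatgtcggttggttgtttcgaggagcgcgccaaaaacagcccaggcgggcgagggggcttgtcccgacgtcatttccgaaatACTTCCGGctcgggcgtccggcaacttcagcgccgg
Sdha, chr13:74350211-74350360, minus strand: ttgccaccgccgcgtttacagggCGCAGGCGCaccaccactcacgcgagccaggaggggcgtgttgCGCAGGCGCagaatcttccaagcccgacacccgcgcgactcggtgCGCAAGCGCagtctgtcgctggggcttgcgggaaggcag

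The motifs were searched on both strands in windows from 250 bases before to 50 bases after the start. Of the 85 genes, 67 matched a window by gene identifier or symbol (72 windows), and 18 did not. The NRF1 motif GCGCNTGCG was present in 24 of 72 windows (33.3%), against 6.31% of all 32851 windows of the table. The YY1 motif AANATGGCG was present in 10 windows (13.9%, against 2.38% of all), and the ETS motif CCGGAAGT in 5 (6.9%, against 3.89%). The core of the antioxidant response element, TGACNNNGC, to which Nrf2 binds, was present in 10 windows (13.9%), close to the 12.39% of all windows. In total, 39 genes held at least 1 of the 4 motifs, and 8 windows held 2 or more. Among the sequences shown, the capitals are NRF1 matches in *Atp5k*, *Ndufa8*, and *Sdha*, and ETS matches in *Ndufs3* and *Cox8a*. *Cox8b* held none. An NRF1 match thus stood in front of a gene that rose at P40 (*Atp5k*) and of one that was not called (*Sdha*), and a match describes letters only, not binding.

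Levels can be compared between genes only per length. The means over all 32 libraries were divided by the median length of a gene's coding transcripts (mean CPM per kb), and the group medians by the length of the principal transcript, the annotation's main isoform (CPM per kb of principal transcript). By the mean, the highest subunit of complex I by symbol was *Ndufa4*, a protein now known to sit in complex IV, with 2065 CPM per kb, and its median in P20 control eyes was 1009. In complex II the highest was *Sdhd*, a membrane anchor, with a mean of 192 and a P20 control median of 175, and in complex III *Uqcr11*, a small accessory subunit, with 1067 and 384 CPM per kb. For these 3 the P20 control median was also the highest of the complex. In complexes IV and V the order depended on the libraries. *Cox8b* had a mean of 2574 CPM per kb and its ubiquitous counterpart *Cox8a* 1415, but the P40 eyes of mouse 3 raise these means. The group medians of *Cox8b* and *Cox8a* were 878 and 737 in P20 control eyes, 760.2 and 922 in P20 Nrf2 eyes, 1265 and 861 in P40 control eyes, and 801 and 1091 CPM per kb in P40 Nrf2 eyes, so the median of *Cox8b* was above that of *Cox8a* in control eyes and below it in Nrf2 eyes, a difference that was not tested. In complex V, *Atp5j*, coupling factor 6 of the stator stalk, had the highest mean (837 CPM per kb) next to *Atp5k* (836). In P20 control eyes their medians were 344 and 185, and the highest was *Atp5b*, the catalytic β subunit, with 733 CPM per kb, which was also first in the other groups by their medians. For 6 subunits the median transcript differs more than 2 times from the principal transcript, and with the principal length the mean of *Ndufs1*, for example, was 39.1 rather than 158 CPM per kb.

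Tissue-restricted forms of complex IV other than *Cox8b* were low per length. Medians over P20 control eyes were 2.48 and 11.3 CPM per kb of principal transcript for *Cox6a2* and *Cox7a1*, the forms of heart and skeletal muscle, against 467 and 218 CPM per kb for their ubiquitous partners *Cox6a1* and *Cox7a2*. *Cox4i2*, the form linked to low oxygen, had a median of 2.06 CPM per kb and *Cox4i1* of 652. *Ndufa4l2*, a hypoxia-induced relative of *Ndufa4*, had 2.09 CPM per kb where *Ndufa4* had 1009. *Cox6b2*, a form known from testis, had 37.1 CPM per kb and its partner *Cox6b1* 340.1. In every one of these pairs the restricted form was the lower. *Cox7b2* and *Cox8c*, also testis forms, had medians of at most 0.132 CPM and were too low to be tested, which left 83 of the 85 subunits in every comparison.

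The 3 genes of ATP synthase subunit c encode the same mature ring protein. In P20 control eyes *Atp5g3* had a median of 471 CPM per kb of principal transcript, *Atp5g1* of 85.7, and *Atp5g2* of 42.6. The value of *Atp5g1* rests on a long annotated transcript (2676 bases). For *Atp5g2* the level is uncertain, since 72.8% of the reads summed over the gene and its near-identical pseudogenes were assigned to the pseudogenes. The same share was 76.5% for *Ndufb4*, 64.2% for *Ndufa12*, 53.3% for *Ndufs5*, 31.2% for *Atp5l*, and 10.5% for *Cox7a2l*, and 64 of the 85 genes had no such pseudogene.

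Summed over the 85 genes, subunit RNA was tightly held at P20 and spread widely at P40. In P20 control eyes the sum ranged from 12026 through a median of 14127 to 14726 CPM, and in P20 Nrf2 eyes from 11757 through 15044 to 16535 CPM. In P40 control eyes it ranged from 13604 through 17964 to 76772 CPM, and in P40 Nrf2 eyes from 12626 through 17981 to 116480 CPM. The groups overlapped at their lower ends. The upper end was made by 5 libraries, namely both eyes of mouse 3 (76772 CPM in the control eye and 116480 in the Nrf2 eye), the control eye of mouse 5 (45341), and the Nrf2 eyes of mice 6 (36976) and 8 (41589).

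**Figure D1:**
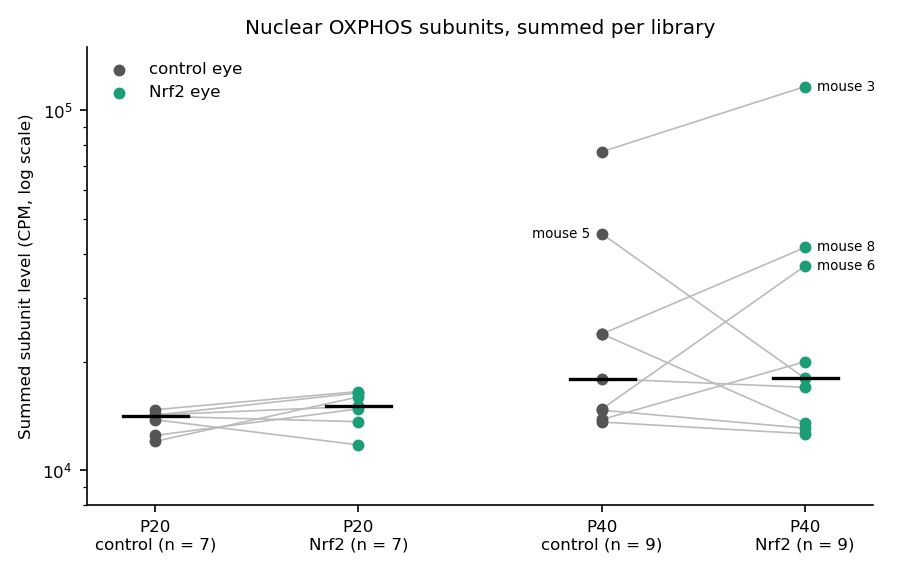
Summed level of the 85 nuclear subunits per library in CPM (log axis), in control eyes (grey) and Nrf2 eyes (green) at P20 (n = 7) and P40 (n = 9). Lines join the eyes of a mouse and bars mark group medians. All 14 P20 libraries lie between 11757 and 16535 CPM, whereas the 5 named P40 libraries lie between 36976 and 116480 CPM.

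These 5 libraries differed from the rest in other measures as well. RNA of the cytosolic ribosome was at 14831 to 40851 CPM in them, against 4191 to 8664 CPM in P20 control eyes, and it also reached 24278 CPM in the control eye of P40 mouse 8. RNA of the 13 mitochondrially encoded subunits was at 36869 to 57338 CPM in the 5 libraries, against 13191 to 19006 CPM. The sum of 10 RPE markers was at 50571 to 70765 CPM in 4 of them and at 23884 CPM in the Nrf2 eye of mouse 8, against 12177 to 27899 CPM in P20 control eyes, and most of the highest sum was *Ttr* (59345 CPM). Short transcripts were over-represented in them, with a slope of log2 level on log2 transcript length between −0.390 and −0.154, whereas all P20 libraries had positive slopes of 0.0286 to 0.243. Negative slopes were also found in 7 of the other 13 P40 libraries, down to −0.173 in the control eye of mouse 2. The Nrf2 eye of mouse 3 also held the highest sums of blood markers (5835 CPM) and skeletal muscle markers (1939 CPM), which include *Acta1* at 388 and *Myh4* at 281 CPM in the highest P40 Nrf2 eye. The part of each of these in the subunit levels was not tested.

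The spread of single subunits showed the same split. The median SD of log2 CPM over the subunits was 0.15 in P20 control and 0.24 in P20 Nrf2 eyes, below the 0.41 and 0.45 of all genes tested. At P40 it was 1.05 and 1.08, above the 0.69 and 0.72 of all genes tested. Subunits with a principal transcript under 1000 bases had a median SD of 1.14 in P40 control eyes, and longer ones 0.37. In P40 control eyes, the tightest subunit was *Ndufv1*, which binds NADH in complex I, with an SD of 0.12, and the widest was *Atp5k*, subunit e of the ATP synthase membrane sector, with 1.55.

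**Figure D2:**
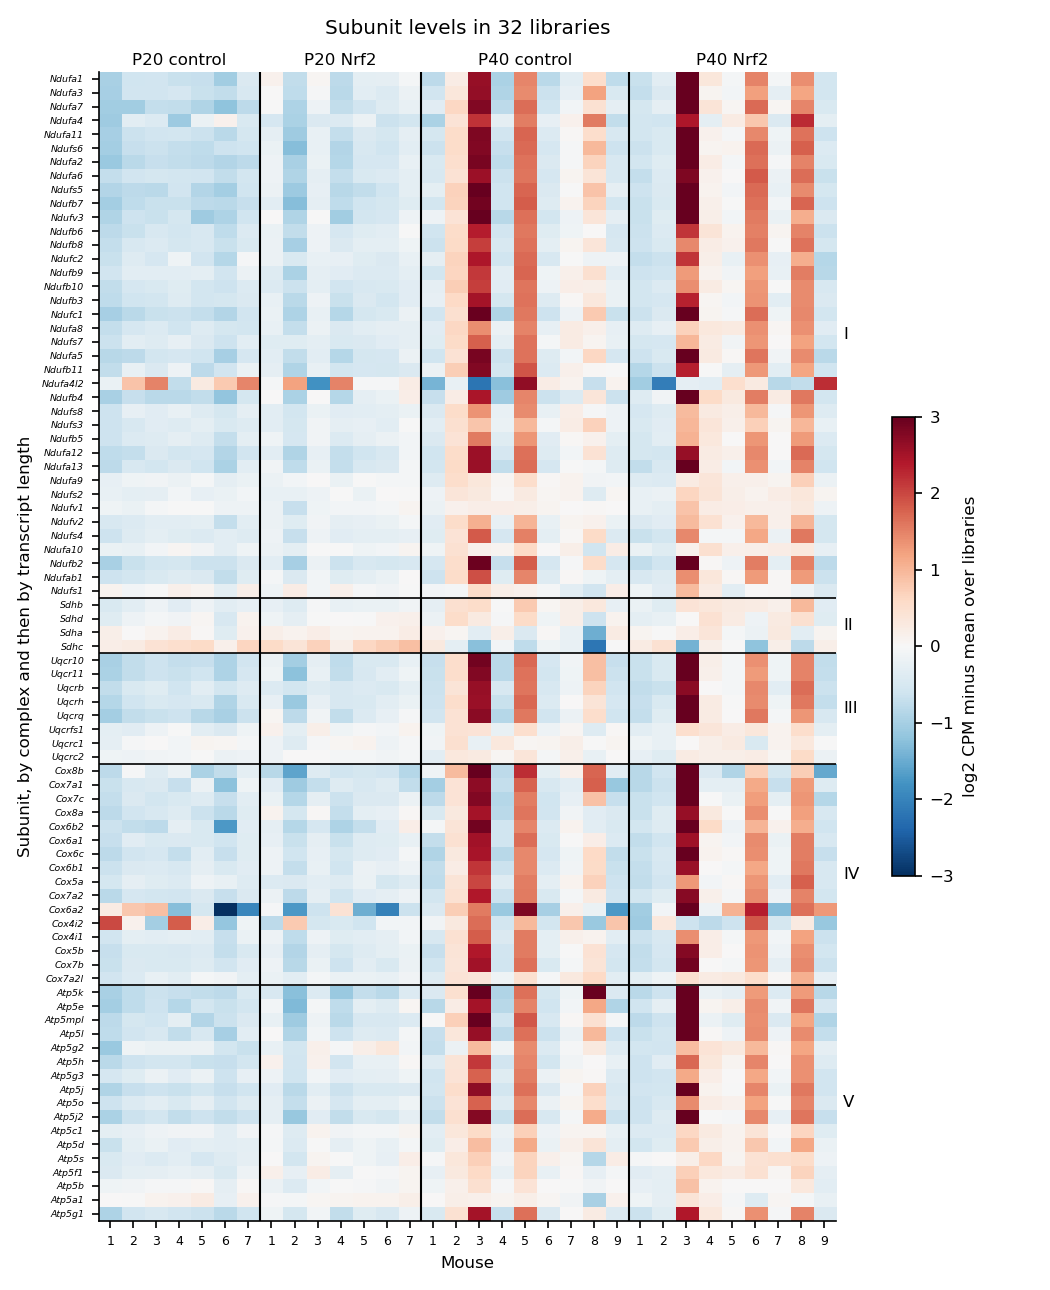
Level of each of 83 subunits (rows, by complex and then by transcript length) in each of the 32 libraries (columns, by group and mouse), as log2 CPM minus the mean over libraries. Red is above and blue below that mean. The columns of P40 mouse 3 (both eyes), control eye 5, and Nrf2 eyes 6 and 8 are red through most short subunits of complexes I, III, IV, and V, while complex II and most rows of long transcripts are paler.

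The first comparison asked whether Nrf2 changed subunit RNA within a mouse at P20. No subunit passed the threshold, and the fitted differences were small and mostly above 0. Of 83 subunits, 68 had a higher fitted level in the Nrf2 eye (45.3% of all genes tested did), with a median log2 fold change of 0.12, against −0.04 for all genes tested. As a share of plain library totals, the sum of the subunits had the reverse order. Its median was 1.48% in Nrf2 eyes and 1.53% in control eyes. This share was lower in the Nrf2 eye of mice 1 to 5 and higher in that of mice 6 and 7. The direction of the summed difference thus depended on the normalization. By edgeR's quasi-likelihood test with Benjamini-Hochberg adjustment, 0 of 83 subunits were called at 0.05, where 3.41% of the 16303 genes tested were called. At an unadjusted *P* under 0.05, 7 subunits passed, all higher in the Nrf2 eye, where 10.7% of all genes were higher at that threshold. DESeq2 called 3 subunits higher, where it called 7.63% of all genes higher, and limma voom with quality weights called 14 higher, where it called 9.77% of all genes. For 80 of the 83 the 95% interval lay within 1 log2 unit of 0.

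The smallest *P* values at P20 belonged to accessory subunits. *Ndufa7*, of the matrix arm of complex I, ranged from 49.2 through a median of 60.7 to 69.4 CPM in control eyes and from 60.2 through a median of 87.4 to 113 CPM in Nrf2 eyes. The Nrf2 eye had more of it in 6 of 7 mice, but the groups overlapped. The fitted log2 fold change ± its SE was 0.46 ± 0.13 (adjusted *P* = 0.105). This subunit was called by DESeq2 (adjusted *P* = 0.0223), without the block for the mouse (adjusted *P* = 0.0478), and in the single fit that left out mouse 4, and over all settings its adjusted *P* ran from 0.0165 to 0.748. Its promoter window is among the 10 with the antioxidant response element core (13.9% of subunit windows, against 12.39% of all windows), and a link to its level was not tested. *Atp5h*, subunit d of the stator stalk, ranged from 213 through a median of 243 to 259 CPM in control eyes and from 252 through a median of 323 to 411 CPM in Nrf2 eyes, a difference of 0.42 ± 0.13 (adjusted *P* = 0.135) on the log2 scale. The Nrf2 eyes of mice 2 and 4 lay within the control range and the other 5 above it, and the Nrf2 eye was higher in 6 of 7 mice. *Ndufab1*, the mitochondrial acyl carrier protein, was higher in all 7 mice, at 0.28 ± 0.09 (adjusted *P* = 0.168).

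The largest fitted differences were not called either. *Ndufb4*, a membrane-arm subunit of complex I, stood at 0.50 ± 0.17 (adjusted *P* = 0.178), with 5 of 7 mice higher, and most reads of this sequence lie in its pseudogenes. *Uqcrq*, a small accessory subunit of complex III, stood at 0.43 ± 0.15 (adjusted *P* = 0.174). At the other end *Cox8b* stood at −0.31 ± 0.22 (adjusted *P* = 0.497), *Ndufb9* at −0.10 ± 0.12, and *Ndufv1* at −0.09 ± 0.10. For all 3 the lowest Nrf2 eye was that of mouse 2, whose library was also the smallest.

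By complex, the medians at P20 were 0.13 for complex I, 0.08 for complex II, 0.16 for complex III, 0.05 for complex IV, and 0.15 for complex V. The 7 catalytic core subunits of complex I that nuclear genes encode, which carry the flavin and the iron-sulfur clusters, had a median of 0.03, and the 5 subunits of the F1 head of ATP synthase 0.09. Within mice, the median difference over the subunits ran from −0.196 in mouse 2 to 0.489 in mouse 1 and was above 0 in 5 of 7 mice. Without mice 3 and 4 the median was 0.11 with 0 called, and with a correction for transcript length it was 0.11 with 0 called. Of the cone markers, genes of retinal photoreceptors, 2 of 7 were called lower in Nrf2 eyes in the same comparison, with sums of 17.8 to 88.1 CPM against 39.0 to 920.5 CPM in control eyes, while 1 of 10 RPE markers was called lower and 1 of 9 rod markers, *Rom1*, higher. DESeq2 called 6 cone markers lower and limma voom 7, and both called 4 rod markers lower. Their part in the subunit values was not tested.

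At P40 the same comparison gave no call and wider errors. Of 83 subunits, 52 were fitted higher in the Nrf2 eye (46.5% of all genes tested), and the median log2 fold change was 0.05, against −0.03 for all genes. By the same test (edgeR's quasi-likelihood) 0 of 83 were called, where 4.57% of 16686 genes were, and 0 reached an unadjusted *P* under 0.05, where 7.85% of all genes did with a higher and 5.17% with a lower level. DESeq2 and limma voom also called 0 subunits, where they called 8.27% and 7.95% of all genes. The within-mouse median over the subunits ran from −1.57 in mouse 5, whose control eye was high, to 1.71 in mouse 6, whose Nrf2 eye was high, and was above 0 in 4 of 9 mice. Without mice 3, 5, 6, and 8, an alternative added after the data were seen, the median was −0.15 with 0 called.

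The subunits with the largest fitted differences at P40 had errors of similar size. *Cox6a2* ranged from 0.703 through a median of 2.12 to 17.5 CPM in control eyes and from 0.961 through a median of 5.11 to 292 CPM in Nrf2 eyes, with overlap everywhere but in the Nrf2 eye of mouse 3. In that library the muscle markers were at their highest as well. The fit gave 0.96 ± 0.81 (adjusted *P* = 0.746), and of the settings tried it was called in the single fit of all 32 libraries. *Ndufb4* stood at 0.59 ± 0.32 (adjusted *P* = 0.508) and *Ndufa1*, a membrane-arm subunit of complex I, at 0.46 ± 0.35 (adjusted *P* = 0.707), both higher in 7 of 9 mice. *Cox8b* stood at −0.66 ± 0.42 (adjusted *P* = 0.614), with 6 of 9 mice lower, *Ndufb11* stood at −0.31 ± 0.38, and *Atp5mpl*, a small proteolipid of ATP synthase, at −0.28 ± 0.38. At P40, 7 of 7 cone markers and 5 of 10 RPE markers were called lower and 3 of 7 macrophage and microglia markers higher in Nrf2 eyes. DESeq2 and limma voom each called 1 RPE marker higher besides 5 lower. Of the macrophage and microglia markers, DESeq2 called 5 higher and 1 lower, and limma voom 5 higher and 0 lower. Of 9 rod markers 3 were called lower, *Sag* and *Pdc* among them, and *Rom1* was called higher (1.51 ± 0.25 (adjusted *P* = 0.00343)), as was *Col3a1* of the 5 fibroblast markers. The part of these in the subunit values was not tested.

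The Nrf2 effect did not differ detectably between the ages. In one fit of all 32 libraries with the mouse as a block, 0 of 83 subunits were called by edgeR's quasi-likelihood test for the difference of the effect (0 by DESeq2 and 0 by limma voom), where 0.00557% of 17959 genes were (0.0668% by DESeq2 and 0.00557% by limma voom), and 0 reached an unadjusted *P* under 0.05, against 2.39% of all genes. The median difference was −0.07. *Cox6a2* had the largest difference, 1.15 (95% interval −1.18 to 3.48), and *Cox8b* the lowest, −0.34 (−1.44 to 0.75). The interval lay within 1 log2 unit of 0 for 68 of the 83 subunits.

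**Figure D3:**
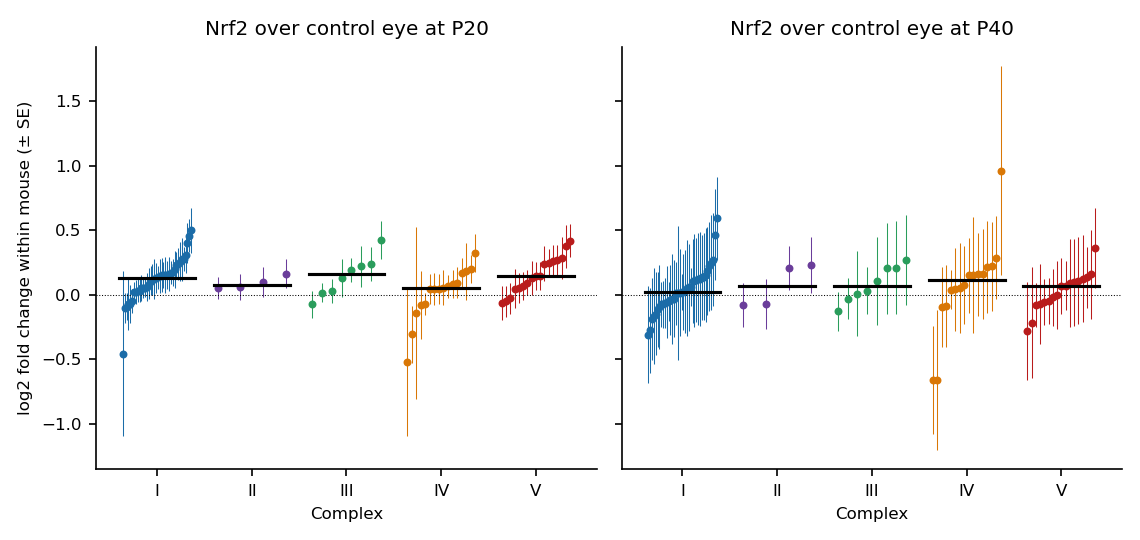
Log2 fold change of the Nrf2 eye over the control eye within mouse for the 83 tested subunits, by complex, at P20 (left, 7 mice) and P40 (right, 9 mice). Points are fitted values with their SE, and bars are medians per complex. The medians run from 0.05 to 0.16 at P20 and from 0.02 to 0.11 at P40, no subunit is called, and the error bars are wider at P40.

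The comparison of P40 with P20 control eyes set eyes without Nrf2 from different mice against each other, and fitted subunit RNA was higher at P40. Age cannot be told apart here from the library series or, if some P40 mice were CD1, from strain. The size of the rise depended on a few P40 eyes, as given below. Of 83 subunits, 37 rose and 0 fell at an adjusted *P* under 0.05 (edgeR's quasi-likelihood test, Benjamini-Hochberg), where 8.34% of 16832 genes rose and 6.42% fell. The median log2 fold change of the subunits was 1.28, against 0.00 for all genes tested, and 54 of 83 were above 1, where 8.87% of all genes were. At an unadjusted *P* under 0.05, 70 subunits were higher, against 19.3% of all genes, and 1 was lower. By complex, 22 of 38 subunits of complex I were called (median 1.30), 1 of 4 of complex II (0.07), 4 of 8 of complex III (1.40), 2 of 16 of complex IV (1.29), and 8 of 17 of complex V (1.01). Whether the complexes differ from each other was not tested.

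Among the called subunits of complex I, *Ndufs3*, a core subunit of the quinone-reducing module, had the smallest adjusted *P*. It ranged from 78.3 through a median of 91.8 to 98.7 CPM at P20 and from 97.0 through a median of 139.6 to 238 CPM at P40, a rise of 0.81 ± 0.21 (adjusted *P* = 0.0269) on the log2 scale. Only the lowest P40 eye fell inside the P20 range. *Ndufa8*, an accessory subunit facing the intermembrane space, ranged from 92.0 through a median of 105 to 115 CPM and from 119.9 through a median of 166 to 425 CPM, so that every P40 eye was above every P20 eye, and the fitted rise was 1.07 ± 0.29 (adjusted *P* = 0.0316). The same separation held for *Ndufb7* and *Ndufb10*, both accessory subunits of the membrane arm, and for no other subunit (1.13% of genes separated this way). *Ndufb7* rose by 1.83 ± 0.51 (adjusted *P* = 0.0326), or 1.18 without P40 mouse 3, and *Ndufb10* by 1.27 ± 0.36 (adjusted *P* = 0.0349).

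Other small subunits of complex I rose as well, with overlap between the ages. *Ndufa7* ranged from 49.2 through a median of 60.7 to 69.4 CPM at P20 and from 66.4 through a median of 107 to 789 CPM at P40, a rise of 1.88 ± 0.50 (adjusted *P* = 0.0293). *Ndufs5* stood at 1.92 ± 0.51 (adjusted *P* = 0.0295) and *Ndufa2* at 1.80 ± 0.50 (adjusted *P* = 0.0326), the first with 53.3% of its summed reads in pseudogenes. In all 3 the highest P40 eye was that of mouse 3, and without it they stood at 1.22, 1.23, and 1.12. The other called subunits of complex I were *Ndufa3*, *Ndufa5*, *Ndufa6*, *Ndufa11*, *Ndufa12*, *Ndufb2*, *Ndufb3*, *Ndufb4*, *Ndufb8*, *Ndufb11*, *Ndufc1*, *Ndufs6*, *Ndufs7*, *Ndufv2*, and *Ndufv3*, from 0.75 (*Ndufv2*) to 1.79 (*Ndufv3*).

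In complex V, *Atp5k* had the largest fitted rise of all subunits. It ranged from 58.8 through a median of 68.5 to 83.7 CPM at P20 and from 61.3 through a median of 105 to 997 CPM at P40, and its rise was 2.22 ± 0.62 (adjusted *P* = 0.0324). The P40 eyes of mice 3, 5, and 8 lay far above all P20 eyes, and without mouse 3 the value was 1.72. In complex IV, *Cox8b* ranged from 215 through a median of 316 to 403 CPM at P20 and from 238 through a median of 455 to 5396 CPM at P40 and rose by 2.10 ± 0.62 (adjusted *P* = 0.0372). These groups overlapped, and without P40 mouse 3 the value was 1.27. The only other subunit of complex IV called was *Cox6b2*, at 1.58 ± 0.51 (adjusted *P* = 0.0479), and at 0.83 without P40 mouse 3. *Cox8a*, the ubiquitous partner, was at 1.30 ± 0.47 (adjusted *P* = 0.0675), or 0.69 without P40 mouse 3, and was not called. In complex III the called subunits were *Uqcr10*, *Uqcr11*, *Uqcrh*, and *Uqcrq*, all small accessory proteins, at 1.76, 1.66, 1.46, and 1.66. The other called subunits of complex V were *Atp5e*, *Atp5g1*, *Atp5h*, *Atp5j*, *Atp5j2*, *Atp5mpl*, and *Atp5s*, between 0.61 and 1.75. In complex II only *Sdhb*, the iron-sulfur subunit, rose, at 0.56 ± 0.17 (adjusted *P* = 0.0401).

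Subunits with long transcripts, several of which hold catalytic sites, mostly did not pass the threshold. *Sdha*, the flavoprotein of complex II, ranged from 232 through a median of 325 to 349.6 CPM at P20 and from 109 through a median of 306 to 355 CPM at P40, a fitted difference of −0.16 ± 0.20 with a 95% interval of −0.58 to 0.26. *Sdhc*, a membrane anchor of complex II, had the lowest value of all subunits, −0.74 ± 0.25 (adjusted *P* = 0.0559), with 21.2 to 117 CPM at P40 against 106 to 148 CPM at P20. The α and β subunits of the ATP synthase head, *Atp5a1* and *Atp5b*, stood at −0.03 (95% interval −0.39 to 0.33) and 0.21 (−0.11 to 0.54). *Ndufs1*, which carries iron-sulfur clusters of the NADH module, stood at 0.04 (−0.29 to 0.37), and the core proteins of complex III, *Uqcrc1* and *Uqcrc2*, at 0.18 and 0.23. The principal transcripts of these genes run from 1653 to 3171 bases.

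**Figure D4:**
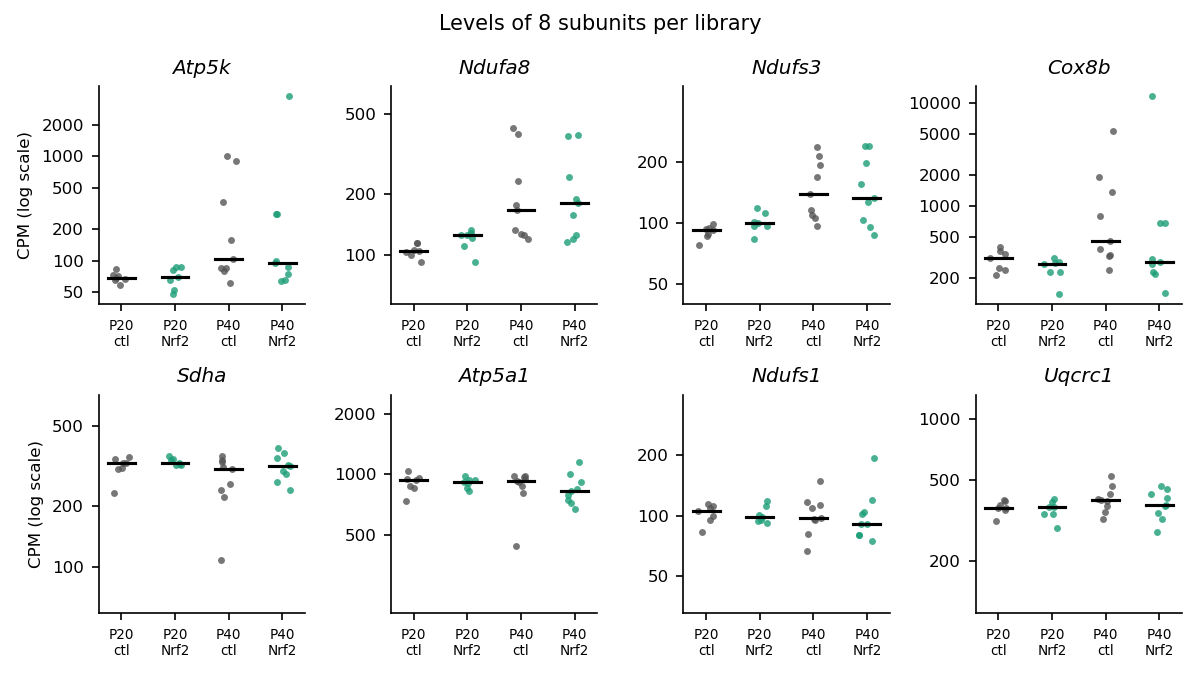
Levels of 8 subunits in every library in CPM (log axes), by group (P20 n = 7, P40 n = 9 eyes of each kind, ctl = control eye). Bars are medians. The upper row shows subunits called higher at P40 in control eyes, where *Ndufa8* separates the ages and *Atp5k* and *Cox8b* have 1 or a few P40 eyes far above the rest. The lower row shows long subunits that were not called.

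Since the subunits are mostly short genes, the change with age was set against transcript length. Their principal transcripts run from 360 to 3171 bases with a median of 763, against 2601 bases for all genes tested. The 54 subunits under 1000 bases had a median log2 fold change of 1.43 with 30 called higher, and the 29 longer ones 0.45 with 7 called. Across the 83 subunits the fold change and log2 length correlated with r = −0.69, a description over genes that share all libraries. All genes showed a trend of the same direction: when all genes were split into 10 classes of equal size by length, the median was 0.73 with 23.7% called higher in the shortest class (102 to 906 bases) and −0.33 in the class from 4328 to 5648 bases.

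In the 3 shortest classes, which hold 73 of the 83 subunits, the subunits had a higher median than all genes of the class. In the shortest class, the 48 subunits had a median of 1.40 with 26 called, next to the 0.73 of the class. In the next class (907 to 1353 bases) the 17 subunits had a median of 0.85 with 7 called, and the class 0.42 with 21.1% called higher. In the class after that (1354 to 1758 bases) the 8 subunits had 0.41 with 2 called, and the class 0.23 with 12.2%. The other 10 subunits lie in the 4 classes after these, with at most 3 in each, and the single subunit of the class from 3036.5 to 3597.5 bases stood at −0.74, below the −0.24 of that class. Levels were not matched within these classes, and no test was made of the difference.

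A correction for length, with a smooth curve of level on transcript length for each library, reduced the values. With the median transcript length, 9 of 83 subunits were called higher where 6.82% of all genes were, and the median log2 fold change was 0.72 against 0.05 for all genes. The 9 were 8 subunits of complex I and *Atp5g1* of complex V. *Ndufs3* was then at 0.58 (adjusted *P* = 0.0356), *Ndufa8* at 0.74 (0.0400), and *Atp5k* at 1.33 (0.0589). With the principal transcript, added after the data were seen, 6 were called higher, where 6.30% of all genes were, and the median was 0.52, and the correlation with length was then −0.17. These 6 were *Ndufs3*, *Ndufa7*, *Ndufs5*, *Ndufa8*, *Ndufb2*, and *Atp5g1*. The last 2 have annotated lengths of 2413 and 2676 bases and fold changes like those of short subunits (1.67 and 1.47, or 0.97 and 0.91 without P40 mouse 3).

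**Figure D5:**
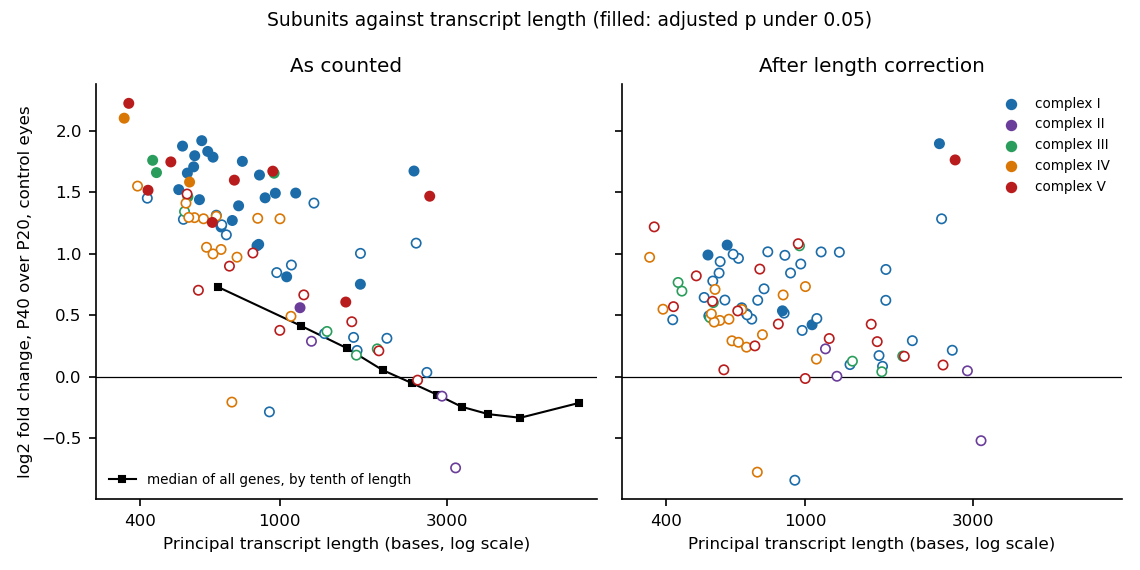
Log2 fold change of 83 subunits, P40 over P20 in control eyes, against the length of the principal transcript (log axis), as counted (left) and after the correction with the principal length (right). Filled points have an adjusted *P* under 0.05, colours mark the complexes, and the black line is the median of all genes in each of 10 length classes. On the left 54 subunits under 1000 bases have a median of 1.43 and mostly lie above the line, and on the right their median is 0.59.

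The count of 37 changed when a single eye of either age was left out. Leaving out the P40 control eye of mouse 5 gave 0 calls, that of mouse 3 gave 3, and that of mouse 2 gave 6, whereas leaving out mouse 1 gave 66 and mouse 4 gave 61. Leaving out the P20 eye of mouse 1, 2, 3, or 5 gave 0 calls, mouse 7 gave 1, mouse 4 gave 3, and mouse 6 gave 6. The share of all genes called in these fits is not given. The counts therefore do not show whether the subunits or all genes gained or lost calls. The median log2 fold change over these fits stayed between 0.77, without P40 mouse 3, and 1.39, without P40 mouse 1. Of the 37 called values, 28 moved by over 1.5 times without P40 mouse 3, and none did without any other single eye. Without P20 mice 3 and 4 together, 0 subunits were called and the median was 1.28, in a fit that called 35 genes higher and 123 lower in all. Without P40 mice 3, 5, 6, and 8, chosen after the data were seen, 2 subunits were called higher, where 1.93% of all genes were, and the median was 0.37. These were *Ndufa7* at 0.84 and *Atp5s*, a coupling factor, at 0.50, and *Atp5k* was at 0.53 in that fit. DESeq2 called 69 higher and 1 lower, where it called 15.9% of all genes higher and 9.99% lower. Limma voom with quality weights called 10 higher and 1 lower with a median of 0.43, where it called 9.65% of all genes higher and 12.6% lower.

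In the Nrf2 eyes the change with age had a similar median and no call. Of 83 subunits, 0 were called by edgeR's quasi-likelihood test, where 0.502% of 16745 genes were, 65 were higher at an unadjusted *P* under 0.05 (14.8% of all genes) and 1 lower, 46 had a log2 fold change above 1 (9.66% of all genes), and the median log2 fold change was 1.18 against 0.02. DESeq2 called 36 higher and 1 lower (7.05% and 3.68% of all genes), and limma voom 0 higher and 1 lower (3.64% and 9.57%). *Atp5k* ranged from 47.8 through a median of 69.6 to 86.6 CPM at P20 and from 64.5 through a median of 95.1 to 3752 CPM at P40, a fitted difference of 2.98 ± 0.93 (adjusted *P* = 0.110) on the log2 scale. Its groups overlapped, and without P40 mouse 3 the value was 0.94. *Cox6a2* and *Cox7a1* had the largest values, 4.60 ± 1.29 (adjusted *P* = 0.110) and 3.37 ± 1.06 (adjusted *P* = 0.110), or 1.66 and 0.77 without P40 mouse 3, and in the Nrf2 eye of that mouse they reached 292 and 319.9 CPM beside the muscle markers given above. No subunit separated the ages (0.209% of genes did). With the length correction the median was 0.60, without P20 mice 3 and 4 it was 1.16, without P40 mouse 3 it was 0.73, and without P40 mice 3, 5, 6, and 8 it was 0.08. Since each eye kind has its own samples here, the 2 age comparisons share mice but no libraries, and the test of their difference is that given above for the Nrf2 effect.

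Genes that work with the subunits moved unequally between P20 and P40 in control eyes. Of all genes tested, 8.34% rose and 6.42% fell in this comparison, and 6.82% were called higher after the correction with the median transcript length. Of 46 assembly factors, 18 rose and 1 fell, with a median log2 fold change of 0.61, among them *Surf1*, needed for complex IV, at 0.76 ± 0.16 (adjusted *P* = 0.0170), and *Sdhaf4*, needed for complex II, at 1.49 ± 0.38 (adjusted *P* = 0.0274). Of 78 proteins of the mitochondrial ribosome, which makes the mitochondrially encoded subunits, 47 rose and 0 fell (median 0.73), and 30 were called higher after the length correction. Of 81 proteins of the cytosolic ribosome, which are short as well, 10 rose (median 1.10) and 1 was called higher after the correction. The 13 mitochondrially encoded subunits had a median of 0.58 with 0 called by edgeR's quasi-likelihood test, 3 by DESeq2, 0 by limma voom, and 5 at an unadjusted *P* under 0.05. These counts also changed when a single eye was left out. Leaving out 1 eye gave 1 to 25 calls for the assembly factors, 0 to 65 for the mitochondrial ribosome, and 0 to 50 for the cytosolic ribosome. Without P40 mouse 5 they were 1, 2, and 0, without P20 mouse 5 they were 1, 0, and 0, and without P40 mouse 1 they were 22, 65, and 50. The shares of all genes called in these fits without 1 eye are not given. DESeq2 called 26, 67, and 49 genes of the 3 lists higher (15.9% of all genes) and limma voom 12, 34, and 1 (9.65% of all genes). Without P40 mice 3, 5, 6, and 8 the medians were 0.39, 0.44, 0.07, and 0.08 in the order given.

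Of 17 genes of pyruvate dehydrogenase and the citric acid cycle, which feed NADH and succinate to the chain, *Suclg1*, of succinyl-CoA ligase, was the one called by edgeR's quasi-likelihood test, at 0.54 ± 0.17 (adjusted *P* = 0.0408), and the median was 0.03. DESeq2 and limma voom each called 3 of the 17 higher and 1 lower, and edgeR called 0 to 4 without 1 eye. Of 11 regulators of mitochondrial biogenesis, 2 fell: *Ppargc1b*, a coactivator, at −0.85 ± 0.17 (adjusted *P* = 0.0112), and *Esrra*, the receptor it works with, at −0.81 ± 0.25 (adjusted *P* = 0.0400). Of 8 electron carriers and other donors, *Etfb*, of the electron transfer flavoprotein, rose at 1.20 ± 0.31 (adjusted *P* = 0.0274) and *Sqor*, which passes electrons from sulfide to ubiquinone, at 0.66 ± 0.17 (adjusted *P* = 0.0286). In the same comparison, 1 of 10 RPE markers was called higher and 1 lower, with a median of 0.60 over the 10. DESeq2 called 4 RPE markers higher and 1 lower, and limma voom 1 higher and 1 lower. Cone markers had a median of 1.56 with 0 of 7 called by edgeR's quasi-likelihood test, 3 at an unadjusted *P* under 0.05, 4 called higher by DESeq2, and 2 by limma voom. By edgeR's test 3 of 5 fibroblast markers were called lower. The part of these cell types in the subunit values was not tested.

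A few of these genes were called for Nrf2 by edgeR's quasi-likelihood test, which called 3.41% of all genes at P20 and 4.57% at P40. *Coa5*, an assembly factor of complex IV, rose by 0.58 ± 0.10 (adjusted *P* = 0.0191), and *Sqor* rose by 2.16 ± 0.22 (adjusted *P* = 0.00921) at P20 and by 1.97 ± 0.22 (adjusted *P* = 2.86e-04) at P40, where *Prodh*, a proline dehydrogenase that also gives electrons to ubiquinone, fell, at −0.59 ± 0.15 (adjusted *P* = 0.0410). The mitochondrial ribosome had 0 of 78 called at both ages by the same test, with medians of 0.10 and −0.02. At P20 DESeq2 called 4 and limma voom 9 higher, where they called 7.63% and 9.77% of all genes higher. At P40 both called 0, where they called 8.27% and 7.95% of all genes. At an unadjusted *P* under 0.05 there were 11 at P20, where 10.7% of all genes were higher. At P40 there was 1, where 7.85% of all genes were higher and 5.17% lower. The 13 mitochondrially encoded subunits had 0 called by all 3 tools, with medians of 0.11 and 0.23 and 0 at an unadjusted *P* under 0.05 at both ages.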

How the data were processed

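Poly(A) RNA from 32 eyecups of 16 mice was amplified and sequenced by the authors, whose methods describe alignment to mm10 with featureCounts and, in parallel, Salmon (version 0.9.1 per the submitters' processing notes) summarised per gene. The deposited table holds estimated counts per gene in whole numbers, not normalized for depth or length, and does not name its counter. The table has 34453 genes, of which 34402 have a symbol and 34401 a transcript length in the annotation used here (GENCODE M21 on GRCm38). Library totals ran from 16548332 to 50542797.

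Counts were normalized with TMM, filtered with filterByExpr, and tested over all genes with edgeR 4.0.16 (quasi-likelihood, R 4.3.3, adjusted *P* under 0.05). The mouse was a block for the Nrf2 effect and for its difference between ages, and ages were compared without a block. CPM are TMM-scaled. DESeq2 1.42.0 and limma 3.58.1 (voom with quality weights) were alternatives. Transcript length was corrected with a spline of 5 degrees of freedom per library, entered as offsets. Fits were tested on simulated data. Pseudogenes were matched at 95% identity over at least 200 bases.

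The eyes of a mouse are paired by the labels. The correlation of their deviations from the group means averaged 0.0213 at P20 (−0.273 to 0.270) and 0.0990 at P40 (−0.352 to 0.618), and was over 0.1 in 3 of 7 and 3 of 9 mice. The members and gene lists were chosen with earlier results of these data known. Subunits were named when among the 8 with the smallest adjusted *P* under 0.05 or the 3 largest changes in each direction at a mean log2 CPM of at least 2, when highest per kb in their complex, or as tissue forms and their partners. For other lists, up to 3 genes with the smallest *P* were eligible. The subunits with *P* under 0.05 at P20, all called subunits, *Sdhb*, *Atp5b*, *Ndufs1*, *Uqcrc1*, *Uqcrc2*, *Ndufb2*, and *Atp5s* were named after their values were seen.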

Additional observations from a re-analysis of the deposited data

Results flagged for a closer look

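The sets of values examined were the level of a subunit, the sum of a complex, or the length slope, per group. Single eyes lay apart from their group by Dixon's criterion on the log2 scale in 22 of 188 sets. Chance gives about 1 in 20 for a single set. The sets share the same libraries, so 1 eye can be flagged many times and the total cannot be set against that rate. In the Nrf2 eye of P40 mouse 3 the values were *Cox8b* 11702, *Uqcr11* 5365, *Atp5k* 3752, *Ndufa1* 2929, *Ndufa2* 2462, *Cox6b2* 582, *Cox7a1* 319.9, and *Cox6a2* 292 CPM, with 16890 CPM summed over complex III, each the highest of 9. In the Nrf2 eye of P40 mouse 6, *Cox4i2* was the highest at 5.12 CPM. In the control eye of P40 mouse 8, *Atp5a1* (443 CPM), *Sdha* (109 CPM), and the sum of complex II (529 CPM) were the lowest, and in that of mouse 1 *Ndufv1* was (129.8 CPM).

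At P20 all such values were low ones. In the Nrf2 eye of mouse 2 they were *Cox4i1* 359.6, *Cox8b* 139, *Ndufb9* 113, and *Ndufv1* 91.4 CPM, in the library with the fewest counts. In control eyes they were *Atp5j* (216 CPM) and *Ndufb7* (74.1 CPM) of mouse 1, and *Sdha* (232 CPM) and *Cox6b2* (9.73 CPM) of mouse 6. What set these eyes apart was not tested.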

How the results depend on the processing

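The result that depended most on the processing was the count of 37 subunits called between the ages in control eyes. It was 70 with DESeq2, 23 in one fit of all 32 libraries, 14, 10, 9, 6, and 5 with the corrections for summed exons, length with GC content, median length, principal transcript, and longest transcript, 11 with limma voom, 3 without a filter on low counts, 2 without P40 mice 3, 5, 6, and 8, and 0 without P20 mice 3 and 4. Leaving out 1 eye gave 0 to 66 calls and medians of 0.77 to 1.39. Where no share of all genes is given above for a setting, its count does not show whether calls over all genes moved alike. The median of 1.28 moved to 0.43 with limma voom, 0.46 with the longest transcript, and 0.37 without P40 mice 3, 5, 6, and 8. In the Nrf2 eyes, where 0 were called, DESeq2 called 37, the single fit 3, and limma voom 1, and the median of 1.18 moved to 0.26 with limma voom and to 0.078 without P40 mice 3, 5, 6, and 8 (0.73 to 1.29 without 1 eye, 0 called).

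For the Nrf2 effect at P20 (0 called), DESeq2 called 3, limma voom 14, and the fits without 1 mouse 0 to 1 (medians 0.06 to 0.18). Without the block that pairs the eyes of a mouse, 2 were called, *Ndufa7* (adjusted *P* = 0.0478) and *Atp5h* (0.0412). At P40 the fit without the block called 0, the single fit of all 32 libraries called 1 (*Cox6a2*), and the median was −0.11 to 0.21 without 1 mouse. No paired analysis was possible because the P20 and P40 mice are different animals, for the comparisons between ages. The summed level in P20 control eyes had a median of 15325 CPM with plain library totals, which is 1.53% of counts. In P20 Nrf2 eyes the median share was 1.48%, so the order of the 2 groups was reversed. Leaving out P20 mice 3 and 4 bears on no value of the P40 Nrf2 effect. No result past the threshold under any of these settings changed direction. The principal-transcript correction, the omission of P40 mice 3, 5, 6, and 8, and the addition of pseudogene counts (38 called between the ages) were chosen after the data were seen. Why the settings differ was not tested. The spread between P40 eyes limits the Nrf2 effect at that age, where the 95% interval lay within 1 log2 unit of 0 for 69 of 83 subunits.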
